A study of Mus musculus with 2 samples.

Results

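Chromatin accessibility at 10 genes of myeloid and dendritic cells was examined in the thymus of newborn mice. The genes were Irf8, Cebpa, Csf1r, Itgam, Itgax, Cd14, Lyz2, Mpo, Adgre1 and C1qa, taken by name from 21853 protein-coding genes, and all 10 were in the annotation. The tissue was measured by DNase-seq, in which the enzyme DNase I cuts DNA where nucleosomes are displaced. The series had 1 group of 2 replicates, whole thymus of strain B6NCrl mice at postnatal day 0 with males and females pooled, labelled healthy and with no treatment named. Both replicates carry the same donor label and separate biosample labels, so the spread between them may be partly technical. Replicate 1 had 154812 peaks and replicate 2 had 139702, on mouse build mm10, and sequencing depth is unknown. A peak was put at a promoter when its midpoint lay within 1000 bp of a transcription start site (TSS) of a coding transcript. Other peaks were called distal and given to whichever coding TSS was closest, up to 100 kb away. Distances below run to that TSS. A gene whose promoter was open in each of the replicates is said to have a replicated promoter peak. This gave the 10 genes 70 peaks in the first replicate and 68 in the second. With a single group there was nothing to test between conditions, and the values describe these libraries. In a bulk tissue, fewer cells with an open site and less opening per cell cannot be told apart.

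Myeloid cells arise from progenitors in which the factor PU.1 (gene Spi1) and C/EBP factors open the genes of granulocytes, monocytes and macrophages. IRF8 steers progenitors toward monocytes and dendritic cells. In the thymus most cells are developing T cells, and macrophages and dendritic cells are a minority that clears dying thymocytes and presents antigen. T cell markers were open in this tissue: all 10 genes of a list with Cd3e, Cd247, Cd8a and Cd2 had a replicated promoter peak. Of 10 thymic epithelial genes 5 had one, among them Epcam, Ccl25 and Prss16, and Foxn1, Psmb11, Krt5, Krt8 and Krt14 had none. The share over all protein-coding genes was 62.2%.

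The sequences below are the peaks on which the description turns, read from GRCm38 at the positions deposited for replicate 1 and shown on the strand of the gene. They are the strongest promoter peaks of the 2 transcription factor genes, the strongest distal peak found in both replicates at 5 genes, and the peaks with a PU.1 motif. Capitals mark matches, on either strand, to any of 8 motifs searched: PU.1 (GAGGAAGT), the ETS core (GGAAGT, which lies inside the PU.1 motif), C/EBP (TTGCNNAA), IRF (GAAA, NN, GAAA), an ETS and IRF composite (GGAA, NN, GAAA), RUNX (TGTGGT), AP-1 (TGANTCA) and CTCF (CCA, NN, AGG, N, GG). A match is a description of letters and not a bound site. Each string fixes most of its letters, and a near match is not counted. The Irf8 downstream peak, for example, holds a stretch that departs from the CTCF letters in a fixed position and was not counted. Lyz2 is described without a sequence because its promoter peak reaches into its first exon, and none is shown for Csf1r and Cd14.
Irf8 promoter, chr8:120736196-120736345, no match: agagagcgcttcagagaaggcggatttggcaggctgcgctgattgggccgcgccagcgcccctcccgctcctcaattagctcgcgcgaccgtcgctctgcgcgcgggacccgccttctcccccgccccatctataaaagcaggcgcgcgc
Cebpa promoter, chr7:35119136-35119285, no match: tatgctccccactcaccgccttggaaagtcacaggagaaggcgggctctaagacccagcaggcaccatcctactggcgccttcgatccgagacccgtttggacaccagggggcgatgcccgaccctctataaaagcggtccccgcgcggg
Irf8 downstream peak, chr8:120796376-120796525, RUNX match: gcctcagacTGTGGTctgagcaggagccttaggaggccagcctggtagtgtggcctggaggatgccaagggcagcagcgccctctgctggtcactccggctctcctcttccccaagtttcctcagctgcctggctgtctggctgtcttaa
Irf8 intron peak, chr8:120750816-120750965, PU.1 match: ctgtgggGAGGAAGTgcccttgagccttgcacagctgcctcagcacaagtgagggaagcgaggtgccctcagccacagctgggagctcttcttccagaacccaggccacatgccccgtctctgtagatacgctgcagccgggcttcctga
Itgam upstream peak, chr7:128058776-128058925, RUNX match: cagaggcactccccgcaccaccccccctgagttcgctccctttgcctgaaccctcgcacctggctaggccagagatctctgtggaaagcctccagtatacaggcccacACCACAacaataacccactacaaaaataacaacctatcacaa
Itgax, part of an exon peak, chr7:128133841-128133861, PU.1 matches: ACTTCCTCctgtaACTTCCTC
Mpo downstream peak, chr11:87808356-87808505, RUNX match: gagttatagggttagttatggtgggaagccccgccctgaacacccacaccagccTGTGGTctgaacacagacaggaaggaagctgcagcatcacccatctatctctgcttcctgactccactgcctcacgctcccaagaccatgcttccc
Adgre1 upstream peak, chr17:57335796-57335945, RUNX match: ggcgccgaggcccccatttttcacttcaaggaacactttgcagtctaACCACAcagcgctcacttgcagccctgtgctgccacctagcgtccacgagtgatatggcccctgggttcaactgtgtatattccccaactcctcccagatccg
C1qa upstream peak, chr4:136924656-136924805, no match: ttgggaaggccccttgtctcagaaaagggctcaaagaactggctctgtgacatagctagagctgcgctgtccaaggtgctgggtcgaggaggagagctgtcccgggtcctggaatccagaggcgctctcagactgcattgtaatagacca

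Promoter accessibility differed widely among the 10 genes. Irf8, Cebpa, Itgam, Cd14, Mpo and Lyz2, 6 of 10, had a replicated promoter peak. That of Mpo lay at an internal coding TSS, 9.21 kb from the 5′ end of the gene. Against the 62.2% of all protein-coding genes, the count for the 10 genes is near the background. Adgre1 had a promoter peak in replicate 2 alone, C1qa in replicate 1 alone, and Csf1r and Itgax in neither. Strength was read from the deposited score, whose lowest value was 1 and highest 150, and from the share of the replicate's peaks that scored lower. Scores were lower overall in replicate 2, with a median of 41 against 46 over all peaks. By that share the order of the strongest promoter peaks was the same in both replicates for the 6 genes: Irf8 first, then Cebpa, Itgam, Cd14, Mpo and Lyz2. At Irf8 98.4% of the peaks of replicate 1 and 96.1% of those of replicate 2 scored lower, and at Lyz2 22.7% and 10.7%.

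**Figure D1:**
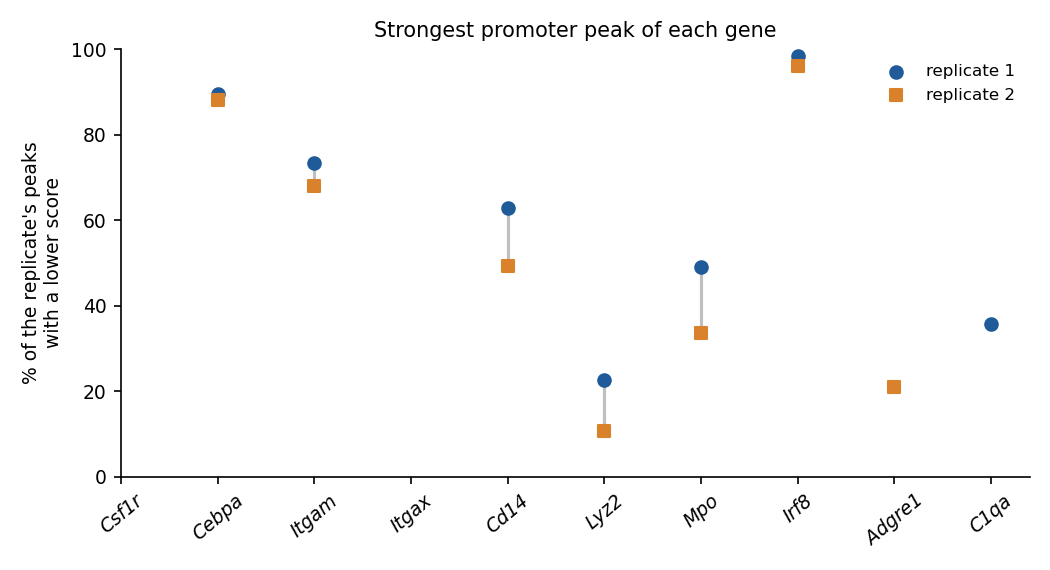
Rank of the strongest promoter peak of each gene. The vertical axis is the percentage of the replicate's peaks with a lower score, points are replicates (blue circle 1, orange square 2), and a missing point means no promoter peak. Irf8 lies above 96% in both replicates, Lyz2 below 23%, and Csf1r and Itgax have no point.

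CpG content of the start site, which the choice of genes did not use, differed among these promoters. Taking 1000 bp around the TSS with the most CpG, the ratio of observed to expected CpG was 0.89 at Cebpa and 0.74 at Irf8 and at most 0.43 (Mpo) at the other 8 genes. With a ratio of at least 0.6 counted as CpG-rich, both CpG-rich members and 4 of the 8 CpG-poor members had a replicated promoter peak. Over all genes these shares were 92.1% of 11174 CpG-rich genes and 31.0% of 10679 CpG-poor genes. The 4 open CpG-poor members were Itgam, Cd14, Mpo (at an internal start site only) and Lyz2.

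Irf8, which encodes the interferon regulatory factor of monocytes and dendritic cells, also used in B cells, had the most distal peaks of the 10 genes. The gene lies on chromosome 8 from 120736358 to 120756694, on the plus strand. Its main promoter peak, centred 87 bp upstream of the TSS in replicate 1 and 67 bp in replicate 2, scored 130 and 128. Another promoter peak, in an intron, 286 and 326 bp downstream of the TSS, scored 48 and 36. Its distal peaks numbered 24 and 23. Of these 16 were shared, which here means an overlap of at least 1 bp between a peak of the first replicate and one of the second. These 16 fell into groups, with 6 upstream, 4 inside the gene and 6 downstream of it.

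The upstream group of Irf8 ran from 20.8 kb to 4.13 kb before the TSS. Its strongest peak, 11.0 kb upstream, scored 83 in replicate 1 and 89 in replicate 2. The 4 peaks inside the gene lay close together, between 12.3 kb and 13.7 kb from the TSS. The first of them scored 53 and 73 and holds the PU.1 match shown above, and the last lies in an exon, scored 47 and 66 and holds the single IRF match among all distal shared peaks of the 10 genes. The peak 13.2 kb from the TSS scored 80 and 66. Between this group and 57.8 kb downstream no shared peak was listed, and a peak of score 31 at 26.1 kb in replicate 1 and a peak of score 23 at 53.9 kb in replicate 2 had no counterpart.

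The downstream group of Irf8 held 6 shared peaks from 57.8 kb to 89.8 kb past the TSS. Its first peak scored 92 in both replicates and outranked 85.8% and 86.0% of peaks, the highest summed score of the distal Irf8 peaks. The last, at 89.8 kb, scored 85 and 87. The peaks at 62.1 kb (72 and 52) and 82.9 kb (70 and 46) scored lower in replicate 2, and those at 69.3 kb (46 and 34) and 84.4 kb (35 and 23) were the weakest of the group. All of these positions lie inside Gm20388, an annotated read-through locus of 4435 kb, and outside any other coding gene body. The nearest coding start sites are Cox4i1, 68.05 kb before the first Irf8 TSS, and Foxf1, 345.7 kb after the last. Beyond the 100 kb limit another 7 peaks in replicate 1 and 8 in replicate 2 were nearest to Irf8. With start sites of all biotypes in place of coding ones, Irf8 had 5 distal shared peaks.

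**Figure D2:**
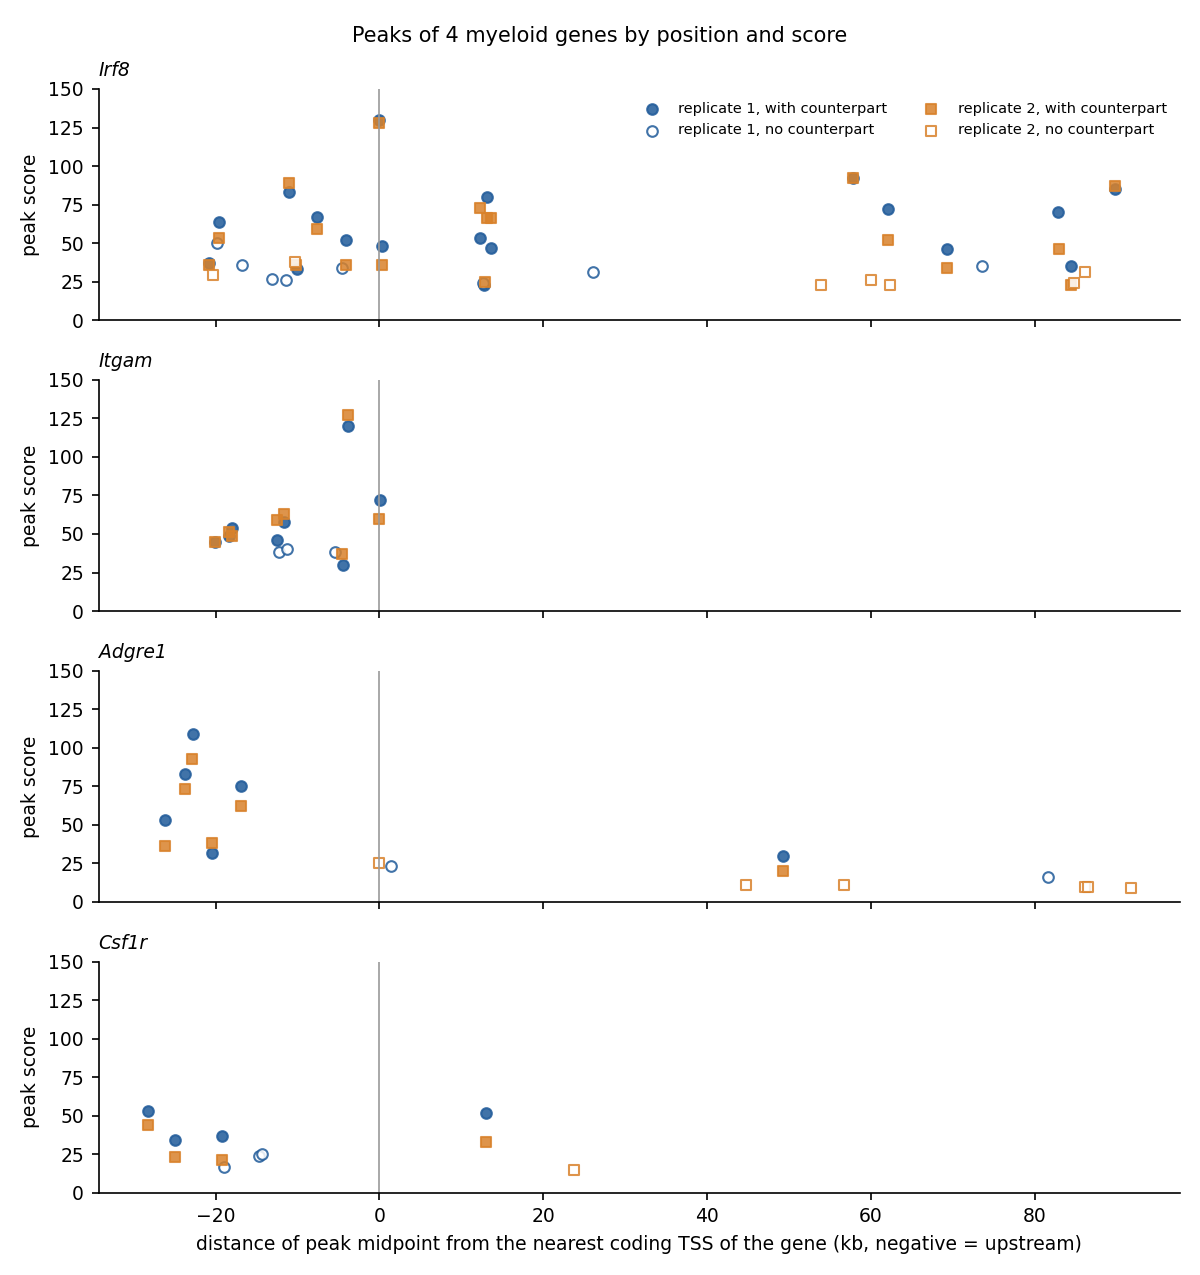
Peaks of Irf8, Itgam, Adgre1 and Csf1r. The horizontal axis is the distance of the peak midpoint from the nearest coding TSS of the gene in kb (negative upstream), the vertical axis the deposited score, filled symbols have a counterpart in the other replicate and open ones do not (blue circles replicate 1, orange squares replicate 2). Irf8 has peaks on both sides and at its TSS, Adgre1 a group from 26.2 to 17.0 kb upstream, and Csf1r none at its TSS.

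Cebpa, which encodes the C/EBP factor required to form granulocyte and monocyte progenitors, showed another arrangement, with a strong promoter and a single distal shared peak. The gene lies on chromosome 7 from 35119293 to 35121928, plus strand. It had 3 promoter peaks in both replicates, inside a single hotspot (a wider enriched region) of 1734 bp in replicate 1 and 1729 bp in replicate 2. The central one, 82 bp upstream, scored 100 and 98. The one 702 bp upstream scored 56 and 38, and the one 308 and 288 bp downstream 37 and 40. The sole distal shared peak, scored 35 and 34, was centred 1.10 kb upstream in the same hotspot, just outside the promoter limit. The other distal peaks of Cebpa, 1.59, 12.5 and 32.4 kb downstream, scored 16, 17 and 16 and were in replicate 2 alone. Genes with territories of like length, the sequence nearer to their TSSs than to any other within 100 kb, had a median of 3 distal shared peaks.

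Csf1r, which encodes the receptor for the macrophage growth factor CSF1, had no peak at its promoter. The peak nearest to any of its coding TSSs lay 13.0 kb downstream, in an intron of Csf1r, and scored 52 in replicate 1 and 33 in replicate 2. It holds a RUNX match and, among the 42 distal shared peaks of the 10 genes, the single match to the CTCF letters searched. The 3 other distal shared peaks lay upstream at 28.3 kb (53 and 44), 24.9 kb (34 and 23) and 19.2 kb (37 and 21). Those at 28.3 and 24.9 kb lie in introns of Pdgfrb, the neighbouring gene for a growth factor receptor of mesenchymal cells, and that at 19.2 kb lies 1.27 kb past its end. All 4 scored lower in replicate 2. Another 3 distal peaks were in replicate 1 alone and 1, of score 15, in replicate 2 alone.

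Itgam and Itgax encode integrin chains CD11b and CD11c, surface markers of myeloid cells and of dendritic cells, and lie next to each other on chromosome 7. Itgam runs from 128062640 to 128118491 and Itgax from 128129547 to 128150657, both on the plus strand. The promoter peak of Itgam covered the start of the gene, with midpoints 0.0105 and 0.0305 kb from its 5′ end, and scored 72 and 60. The strongest distal peak of the 10 genes lay 3.79 kb upstream of Itgam in intergenic sequence, scored 120 and 127, and outranked 95.8% of peaks in each replicate. All 7 distal shared peaks given to Itgam were upstream, out to 20.03 kb. Between them the scores ran from 30 to 120 in replicate 1 and from 37 to 127 in replicate 2. The peak at 12.5 kb scored 46 and 59 and that at 11.7 kb 58 and 63. The 3 other distal peaks of replicate 1, with scores of 38 to 40, had no counterpart, whereas every distal peak of replicate 2 had one.

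Itgax had no promoter peak, and its nearest peak, 1.68 kb downstream of a TSS in an exon, scored 43 and 26. Its other distal shared peak, 4.28 kb downstream and also overlapping an exon, scored 66 and 61, and outranked 68.9% and 68.8% of peaks. That peak held 3 PU.1 matches, of which the first 2 are shown above, and a C/EBP match. No other distal shared peak of the 10 genes held more than 1 PU.1 match.

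The rule gave no distal peak inside the body of Itgam to Itgam. Gm49368, a read-through gene model, shares the last coding TSS of Itgam and has another start 53.753 kb after it. Peaks past the shared TSS and closer to it than to the other start were equally near to both genes. The order of the annotation gave these to Gm49368. Shared peaks 35.7, 47.9 and 52.7 kb past the start of Itgam were nearer to the other start of Gm49368. This model took 10 distal shared peaks, and all 10 lay in the body of Itgam. The strongest, 17.6 kb past the start of Itgam, scored 105 and 120 and outranked 91.3% and 94.1% of peaks. The peaks at 21.1 kb and 18.9 kb scored 86 and 69, and 80 and 48. In an assignment without Gm49368, chosen after its peaks were seen, Itgam had 14 distal shared peaks, Itgax 5 and the 10 genes together 52.

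Cd14, Lyz2 and Mpo had few peaks, none with a score above 64. Cd14 encodes the co-receptor for bacterial lipopolysaccharide and is a short gene on chromosome 18. Its promoter peak was centred in its exon, 727 and 767 bp past the TSS, and scored 59 and 41. A distal shared peak at 1.23 and 1.17 kb, in the same gene, scored 28 and 39. No peak of either replicate was centred closer to the Cd14 TSS than 727 bp.

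Lyz2, the lysozyme gene of macrophages and granulocytes, lies on chromosome 10 from 117277331 to 117282321, minus strand. Its promoter peak, 50 and 30 bp upstream of the TSS, scored 30 and 20, and holds an ETS core match and a RUNX match. Its distal shared peak, 10.1 kb downstream of the TSS, scored 32 and 15. In replicate 2 it outranked 3.99% of peaks. Mpo, the myeloperoxidase gene of granulocyte precursors, lies on chromosome 11 from 87793581 to 87804413, plus strand. Its promoter peak, scored 46 and 31, lay 253 bp past an internal coding TSS near the 3′ end. The peak itself was 9.21 kb from the 5′ end of the gene. No peak lay within 1000 bp of that 5′ end. Of its distal shared peaks, the one 3.11 kb past the internal TSS scored 52 and 44, and the one at 5.89 kb, in an intron of the neighbouring peroxidase gene Lpo, scored 64 and 45.

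Adgre1 and C1qa mark tissue macrophages, and their strongest peaks lay outside the promoter window. Adgre1 encodes F4/80 and lies on chromosome 17 from 57358691 to 57483527, plus strand. Its promoter peak in replicate 2, 60 bp upstream, scored 25, and in replicate 1 the nearest peak, of score 23, lay 1.36 kb downstream. A group of 5 shared peaks lay 26.2 to 17.0 kb upstream. The strongest, at 22.8 kb, scored 109 and 93, followed by those at 23.7 kb (83 and 73) and 17.0 kb (75 and 62). This group lies 4.44 to 13.7 kb past the end of Vav1, a signalling gene of all blood cell lineages, and no coding start site lies between. Inside the long Adgre1 gene a single peak was shared, at 49.3 kb, with scores of 30 and 20. The unshared distal peaks of Adgre1 scored between 9 and 23.

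C1qa encodes a chain of complement C1q, which macrophages secrete, and lies on chromosome 4 from 136895917 to 136898803, minus strand. Its promoter peak in replicate 1, 548 bp upstream, scored 37, and no peak or hotspot of replicate 2 overlapped it. The distal shared peaks were stronger. The peak 8.45 kb upstream scored 82 and 61 and the peak 25.9 kb upstream 91 and 65. The second lies 4.69 kb from the end of Epha8, the next coding gene. The neighbouring genes of the other C1q chains, C1qb and C1qc, had 0 promoter peaks in each replicate, and they are named here after their values were seen.

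**Figure D3:**
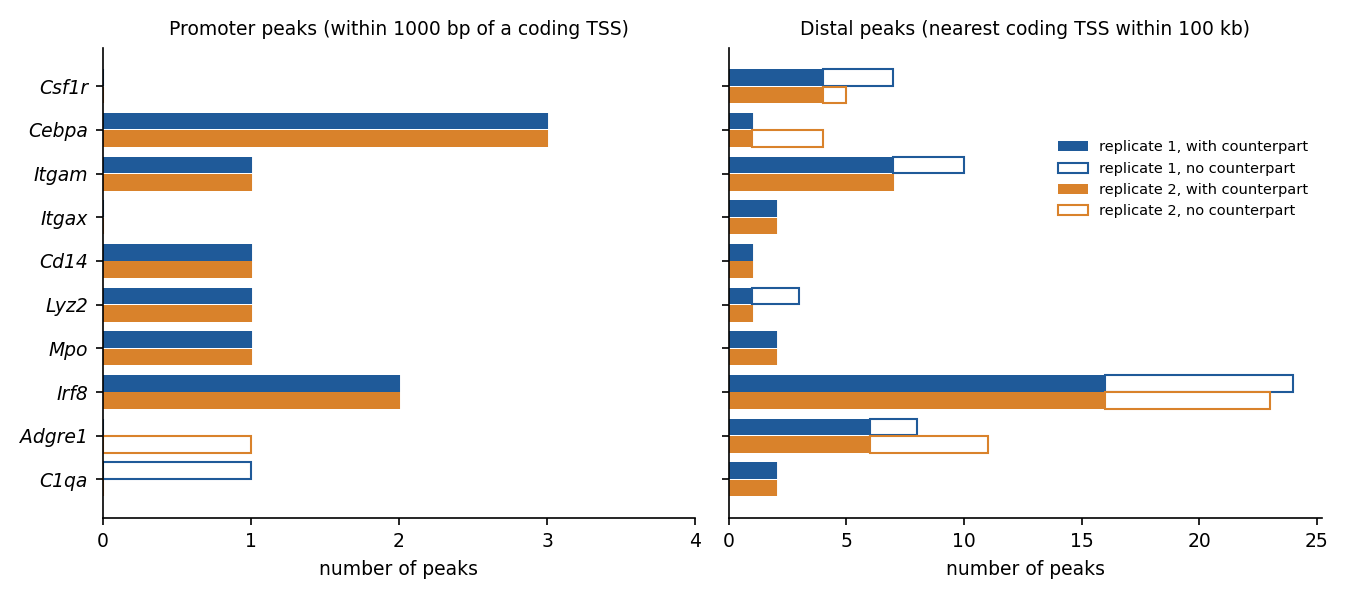
Promoter peaks (left) and distal peaks (right) of each gene. Bars are numbers of peaks per replicate (blue 1, orange 2), filled where the peak overlaps a peak of the other replicate and open where it does not. Irf8 has 24 and 23 distal peaks, and Cd14, Lyz2 and Cebpa have a single distal shared peak each.

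Distal peaks of the 10 genes numbered 60 and 58, and 42 in each replicate had a counterpart in the other. The share was 71.2% ± 1.71 (SD, n = 2), 70% in replicate 1 and 72.4% in replicate 2, where all distal peaks assigned to a gene gave 67.5% and 74.0%. All distal peaks of the 10 genes overlapped a hotspot of their own replicate. Of the 34 without a counterpart, 18 in replicate 1 and 16 in replicate 2, a hotspot of the other replicate was overlapped by 2 in replicate 1 and 0 in replicate 2. Their median score was 26.5 in replicate 1 and 16.5 in replicate 2, against 52.5 and 45.5 for those with a counterpart. The q-value of a hotspot, given as −log10, has a cap of 100. Both replicates were at the cap at 19 of the 42 shared peaks, 9 of them at Irf8, and neither at 15. Counted by hotspot, promoter ones included, 28 of 63 in replicate 1 and 21 of 62 in replicate 2 were at the cap. Over all hotspots the shares were 45.9% and 43.5%. The 10 genes were near this background in replicate 1 and below it in replicate 2. Of the distal shared peaks of the 10 genes 61.9% scored above the median of replicate 1, as did 65.4% of all 68872 distal shared peaks. Their median distance to the TSS was 15.3 kb, and 15.8 kb for all.

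All 10 genes had at least 1 distal shared peak, where the share over all protein-coding genes was 65.0%. With only the stronger 50% of peaks it was 7 of the 10. The median was 2 per gene and 1 over all genes, and Irf8 held 38.1% of the 42. Without Irf8 the total was 26 and the median still 2. Set against the median of genes in the same decile of territory length, 7 members had more distal shared peaks, Cd14 and Lyz2 had the same number and Cebpa had fewer. Irf8 had more than 91.0% of the genes in its decile and Itgam more than 95.7%. The other members above the median were closer to the middle, Itgax at 65.9%, Adgre1 at 59.9%, Mpo and C1qa at 57.1% and Csf1r at 56.6%. Cd14 had more than 44.5%, Lyz2 more than 36.4% and Cebpa more than 21.7%. The share of all genes above the median of their own decile was not computed. The territory of Itgam, 29.2 kb, is almost all upstream, since the sequence past its TSS went to Gm49368. Per 100 kb of territory Itgam had 24.0, Irf8 11.7, Itgax 10.5 and Cebpa 1.54. Of the 42 peaks 9 lay in the body of the gene itself, a count that leaves out the peaks in the Itgam body given to Gm49368.

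**Figure D4:**
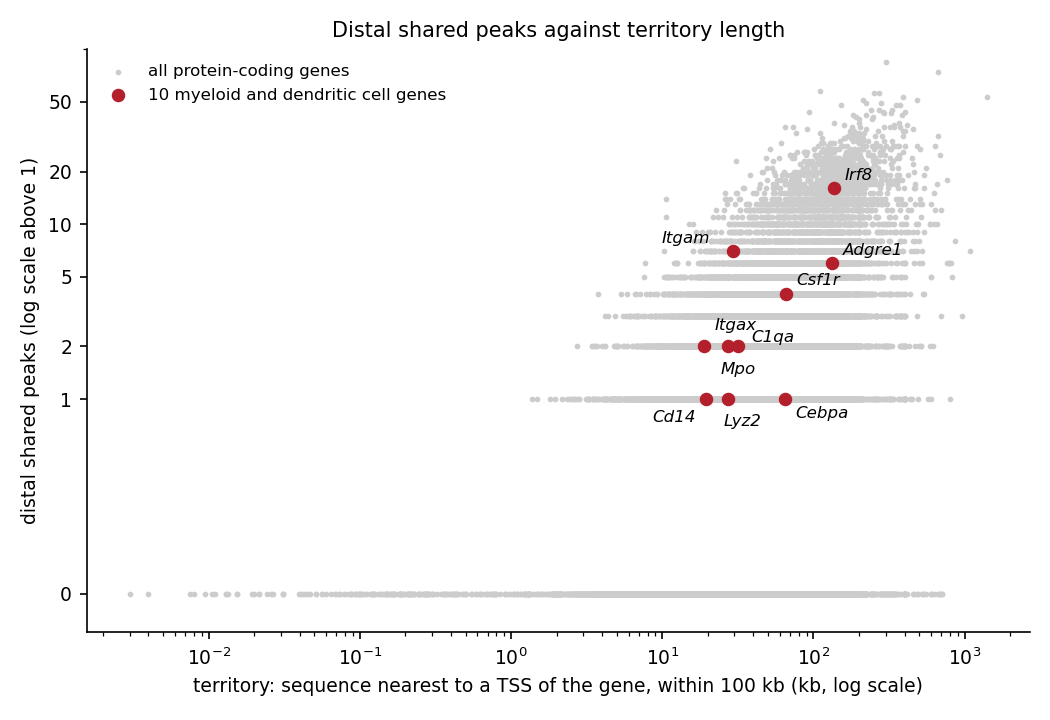
Distal shared peaks per gene against territory length. Both axes are logarithmic (the vertical one linear below 1), grey points are all protein-coding genes and red points the 10 myeloid and dendritic cell genes. Irf8, with 16 peaks in 136.3 kb, and Itgam, with 7 in 29.2 kb, have the most of the 10.

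For each of the 8 motifs, the interval of its share in the 42 distal shared peaks held the share in all 68872. PU.1 matched 2 of 42, or 4.76% (95% Clopper-Pearson interval 0.582 to 16.2), and 3.65% of all. C/EBP also matched 2, and 5.62% of all. The ETS core matched 5 (11.9%, interval 3.98 to 25.6), and 19.0% of all, and RUNX, the family of T cell and blood stem cell factors, matched 11 (26.2%, interval 13.9 to 42.0), and 21.0% of all. IRF matched 1 (2.38%), and 2.01% of all. CTCF matched 1, and 9.23% of all, which is within its interval of 0.0603 to 12.6. AP-1 and the ETS and IRF composite matched 0 of 42, for which the interval reaches 8.41% and the limit of 3 counts in 42 is 7.14%. Both lie above the 5.49% and 1.45% of all. These intervals cover counting error only, and several peaks share a gene. Among the 9 shared promoter peaks, RUNX matched 2, at Itgam and Lyz2, and the ETS core matched 1, against 7.63% and 16.3% of 25224 shared promoter peaks of all genes.

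A wider set of 78 other myeloid and dendritic genes in 6 lists gave the context. Of them 39 (50%) had a replicated promoter peak and 66 (84.6%) a distal shared peak, with a median of 3. Over all protein-coding genes these were 62.2%, 65.0% and 1. CpG-poor genes made up 61 of the 78, and 23 of the 61 had a replicated promoter peak, beside 31.0% of all CpG-poor genes. For CpG-rich genes it was 16 of 17, beside 92.1%. Among transcription factor genes, 12 of 13 had a replicated promoter peak, and 9 of the 13 were CpG-rich. Irf4 had 22 distal shared peaks, Cebpb 21 and Id2 21, and Irf4 and Id2 are also used in lymphocytes. Cebpe, a factor of late granulocyte development, was the single gene of this list without a promoter peak. Spi1, named here after its values were seen because its motif was searched, had 1 and 2 promoter peaks and 3 distal shared peaks. Of 4 growth factor receptor genes, Csf2ra and Flt3 had a replicated promoter peak and Csf2rb and Csf3r had none, and all 4 had distal shared peaks, between 4 and 6.

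Of 12 granulocyte genes 0 had a replicated promoter peak, with 3 open in replicate 1 and 1 in replicate 2, and all 12 were CpG-poor. Distal shared peaks numbered 6 at Mmp9, 5 at Ly6g, 2 at Ltf and 2 at S100a9, with a median of 1 in the list. Of 16 macrophage and monocyte genes 5 had a replicated promoter peak. These were Ccr2 and Cx3cr1, chemokine receptor genes, Axl and Mertk, receptors for dying cells, and Cd68. All 5 were CpG-poor, as were 15 of the 16, and 31.0% of all CpG-poor genes had a replicated promoter peak. Fcgr1 had 15 distal shared peaks, Ly6c2 10, and Ccr2 and Fcgr3 7 each. Ly6c2 and Ly6g belong to a cluster of closely similar genes, and Fcgr1 and Fcgr3 are Fc receptor genes with close relatives. The counts of these genes may be uncertain for that reason, which was not tested.

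Dendritic cell genes fell into those open at the promoter, 8 of 14, and those not. Of the 14, 11 were CpG-poor, and 5 of the 11 were open. Ccr7, the receptor that guides dendritic and T cells, had 19 distal shared peaks, Fscn1 14, Cd83 13 and Itgae, an integrin chain shared with T cells, 10, and all 4 had open promoters. The 6 without a promoter peak in either replicate were Xcr1 and Clec9a, markers of cross-presenting dendritic cells, Siglech, a marker of plasmacytoid cells, and Clec10a, Cd209a and Ccl22, with 1 to 4 distal shared peaks each. Of 19 innate signalling and phagocyte genes 12 had a replicated promoter peak, among them 10 of the 17 that were CpG-poor. Fgr, a Src family kinase gene, had 8 distal shared peaks and Tlr2 had 7, both with open promoters. Ncf1 and Mpeg1 had 6 each, and with Cybb, Lyz1 and Tlr4 were among the 7 genes without a replicated promoter peak. Tlr4 had no peak of either kind.

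**Figure D5:**
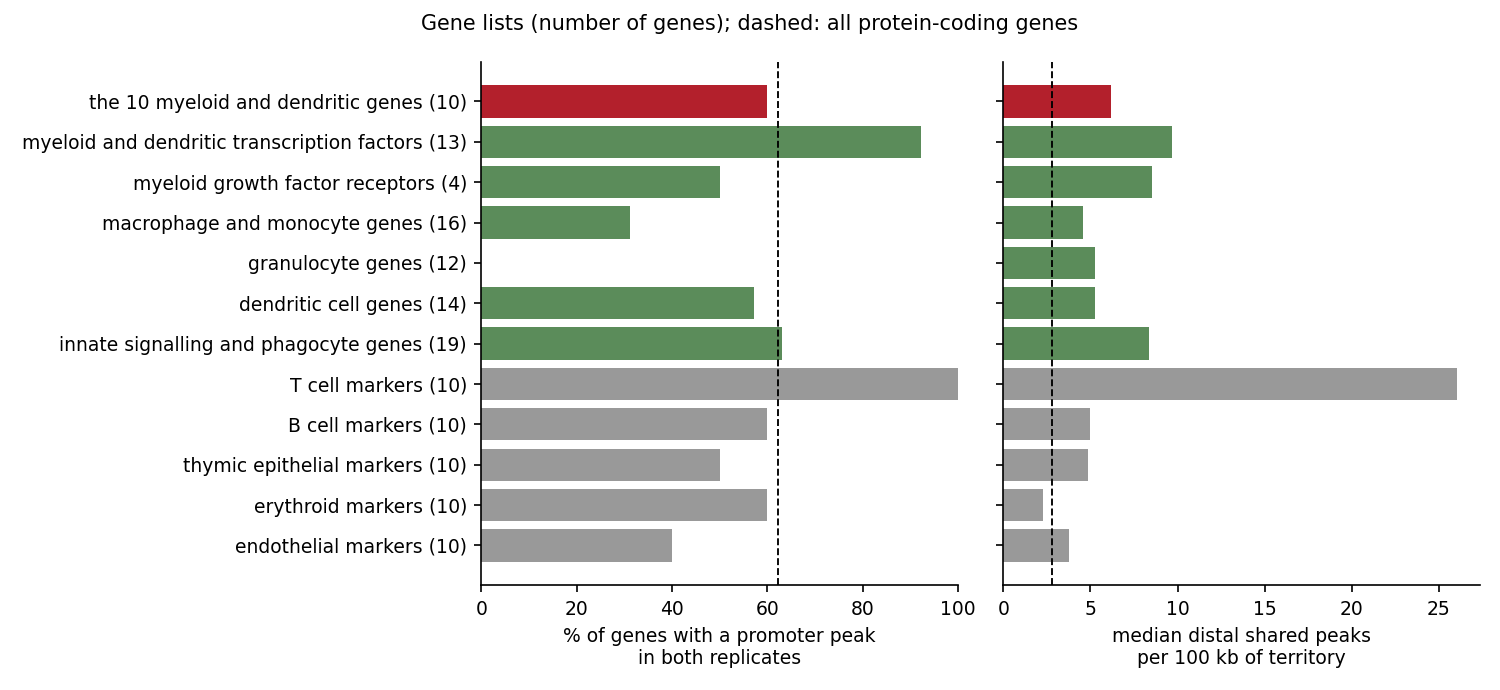
Gene lists by promoter and distal accessibility. Left, the percentage of genes with a replicated promoter peak; right, the median number of distal shared peaks per 100 kb of territory; dashed lines give all protein-coding genes (62.2% and 2.79). The 10 myeloid and dendritic genes stand at 60% and 6.17, granulocyte genes at 0%, and T cell markers at 100% and 26.1.

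Markers of other cell types were counted the same way. The 10 T cell markers, all CpG-poor and all with a replicated promoter peak, had a median of 9 distal shared peaks, or 26.1 per 100 kb. Of the B cell markers 6 of 10 had a replicated promoter peak, with a median of 2.5, or 4.97 per 100 kb. Erythroid markers had 6 of 10 and a median of 1.5, or 2.27 per 100 kb. Endothelial markers had 4 of 10 and a median of 4, or 3.77 per 100 kb. For the 10 myeloid and dendritic genes the median was 2, or 6.17 per 100 kb, and over all protein-coding genes 2.79 per 100 kb. Genes are not replicates, and no test was made between these lists.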

How the data were processed

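DNase-seq peaks and hotspots of 2 replicates of newborn mouse thymus were used as deposited. The peaks were called by the authors in each replicate alone on mm10, per the text deposited with the files, and carry a deposited score of unstated meaning, whole in value though 6.78% and 10.1% were written with a decimal point. The hotspots carry the authors' −log10 of a q-value, deposited with a cap of 100. For aligner, callers, thresholds and depth the sources used here give nothing, and no value was scaled by depth. Peak ends lay within GRCm38 chromosome lengths, and annotation was GENCODE M21 with 54361 coding start sites. Shared distal peaks were counted in replicate 1 and overlap needed 1 bp. The CpG ratio was taken at the coding start site with the most CpG. Motif intervals are exact binomial at 95%. The genes and lists were chosen with earlier results of these data known. Named genes were all 10 members and, per further list, the 4 with the most distal shared peaks and up to 6 in the promoter minority. Some genes that this rule names are not reported here. Score values were compared as deposited and by rank within a replicate. Overlap and assignment were tested on simulated data. Tools were pyfaidx 0.9.0.4 and scipy 1.17.1 with matplotlib 3.10.9, pandas 2.3.3 and numpy 2.4.6, under Python 3.11.15. With 1 group, no test was made.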

Additional observations from a re-analysis of the deposited data

How the results depend on the processing

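No paired analysis was possible because there is a single group. Across the alternatives, 6 of 10 genes with a promoter peak in both replicates became between 4 (stronger 50% of peaks, without Lyz2 and Mpo) and 8 (window of 2500 bp, with Itgax and Adgre1). The total of 42 distal shared peaks was 23 with the stronger 50% of peaks, 27 with start sites of all biotypes, 26 without Irf8, 52 without the read-through model Gm49368, and between 36 and 50 otherwise, single replicates (58 and 60) aside. The 71.2% with a counterpart was 64.4% with a reciprocal overlap of 50%, 88.6% with the stronger 50% of peaks, 73.7% with equal numbers of peaks, 74.7% with all biotypes, 76.5% with a limit of 50 kb, 73.3% without Irf8 and 73.6% without Gm49368; it needs both replicates, so neither could be left out. Genes with a distal shared peak, 10, were 7 with the stronger 50% of peaks, 8 with the window of 2500 bp, 9 with hotspots and 10 otherwise. The share with a PU.1 match stayed between 3.70% and 8.70%. The alternatives without Irf8, without Gm49368 and without peaks written with a decimal point were chosen after seeing the data. Unknown depth limits what a missing peak says. The cause of each shift was not tested, beyond the change in the peaks, start sites or genes that enter. At the limits, the members' farthest promoter peak lay at 767 bp (Cd14, score 41), the nearest distal peak at -1102 bp (Cebpa, score 35), the farthest distal peak at 91717 bp (Adgre1, score 9) and the first beyond at 115632 bp (Irf8, score 14).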
